A study of Mus musculus with 48 samples.

Results

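Imprinted genes are described here across 16 populations of mouse hippocampal neurons: the Dlk1-Meg3 cluster of chromosome 12 (Dlk1, Meg3, Rian and Mirg) together with Peg3, Ndn, Nnat, Snrpn and Peg10. The genes were chosen by name, with earlier results of these data known. Their symbols were matched to the Ensembl identifiers of the deposited count table. Of the 9 genes listed, 6 had a row under their own identifier among the 37620 genes of that table: Dlk1 (ENSMUSG00000040856), Meg3 (ENSMUSG00000021268), Peg3 (ENSMUSG00000002265), Ndn (ENSMUSG00000033585), Nnat (ENSMUSG00000067786) and Peg10 (ENSMUSG00000092035). Rian, Mirg and Snrpn were not analysed here as genes of their own. Small RNA gene rows that lie inside Rian and Mirg, and a row named Gm38393 (ENSMUSG00000000948) that shares exons with Snrpn in the GRCm38 annotation, were read in their place and are reported under their own names.

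An imprinted gene is transcribed mainly from the copy inherited from the mother or mainly from that inherited from the father, according to methylation marks set in the germ line. In the Dlk1-Meg3 cluster the protein-coding gene Dlk1 is expressed from the paternal copy, while the long noncoding RNAs Meg3, Rian and Mirg, which host small nucleolar RNAs and microRNAs, are expressed from the maternal copy. Peg3, Ndn, Nnat, Snrpn and Peg10 are paternally expressed, and many imprinted genes are active in brain and act on growth and behaviour. Counts per gene do not separate the parental copies, so imprinting itself was not measured.

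The study sequenced RNA from fluorescent neurons sorted by hand from dissected slices, with 3 libraries for each population, 48 in all. The populations were parvalbumin (PV) and somatostatin (SST) interneurons of CA1, CA1 pyramidal cells that project to the amygdala, to the nucleus accumbens or to the postsubiculum, CA1 pyramidal cells from dorsal, intermediate and ventral hippocampus, from proximal and distal CA1 and from superficial and deep positions in the cell layer, pyramidal cells of dorsal and ventral CA3, and granule cells of dorsal and ventral dentate gyrus (DG). Amygdala- and accumbens-projecting cells came from ventral CA1 and postsubiculum-projecting cells from dorsal CA1. Strain, age, the mouse lines and the tracers were not given in the sources used here. Reads in genes, in units of 1e6, ranged from 5.12 to 31.98 per library, from 22.12 to 30.08 in dorsal CA1, 6.7 to 10.39 in intermediate CA1 and 5.12 to 8.35 in ventral CA1. Levels are CPM, counts per 1e6 gene reads after library sizes were scaled over all 48 libraries by edgeR's TMM factors. They are given per library or as mean ± SD (n = 3). Called genes are those with an adjusted p below 0.05 in edgeR's quasi-likelihood test. Each standard error (SE) of a log2 fold change was taken from its F statistic.

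Marker genes followed the labels in most libraries. Summed over 5 genes, GABAergic markers ranged in PV libraries from 5587 to 6413 CPM and in SST libraries from 6309 to 7176 CPM, against 0.558 to 2.02 CPM in dorsal CA1. Granule cell markers summed to 1492 to 2103 CPM in DG libraries and to at most 25.6 CPM in the others. Exceptions bear on results below. Proximal CA1 replicate 1 held 256 CPM of GABAergic markers, and proximal replicate 3 held 226 CPM of oligodendrocyte markers. Deep CA1 libraries held 255, 599 and 1022 CPM of GABAergic markers, and endothelial markers summed to 52.9 to 99.8 CPM in libraries of amygdala-projecting cells and to 11.9 to 55.2 CPM for the accumbens target, with 0 to 4.73 CPM in ventral CA1. Microglial markers reached 28.9 to 69.2 CPM in SST cells and oligodendrocyte markers 735 CPM in 1 SST library. PV libraries held 1923, 1837 and 602 CPM of 4 SST-cell markers, against 6614 to 8246 CPM in SST libraries. Sst itself measured 952, 815 and 249 CPM in PV libraries. SST libraries held 49.1, 161 and 5.19 CPM of 3 PV-cell markers, against 1201 to 1502 CPM in PV libraries. The part of these markers in differences between PV and SST cells was not tested. A lower level in a pool of sorted cells can mean fewer expressing cells or less RNA per cell, and these cannot be told apart.

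Promoter sequence upstream of the start site was available from RefSeq (GRCm38.p6) for 5 of the 6 measured genes. Sequences of 250 bases are shown for Dlk1 and Nnat, whose levels shared a ventral bias in CA1, and for Meg3 and Peg3, which share a motif. Each is written 5′ to 3′ on the strand of the gene and ends at the base before the start. Capitals mark the cAMP response element TGACGTCA and the TATA box TATAAA in Meg3, the cAMP response element in Peg3, and GCATGCGC, the core of the NRF1 site, in Nnat. 
Dlk1, chr12:109452573-109452822, + strand: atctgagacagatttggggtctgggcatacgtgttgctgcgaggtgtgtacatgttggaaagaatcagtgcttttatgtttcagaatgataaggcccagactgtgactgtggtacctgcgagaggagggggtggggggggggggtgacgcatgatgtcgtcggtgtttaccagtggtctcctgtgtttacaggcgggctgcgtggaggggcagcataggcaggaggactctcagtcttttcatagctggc
Nnat, chr2:157559828-157560077, + strand: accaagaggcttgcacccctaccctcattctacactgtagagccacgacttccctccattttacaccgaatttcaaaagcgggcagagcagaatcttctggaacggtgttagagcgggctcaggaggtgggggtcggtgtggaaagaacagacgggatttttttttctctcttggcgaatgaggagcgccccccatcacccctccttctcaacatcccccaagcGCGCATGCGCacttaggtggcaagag
Meg3, chr12:109540746-109540995, + strand: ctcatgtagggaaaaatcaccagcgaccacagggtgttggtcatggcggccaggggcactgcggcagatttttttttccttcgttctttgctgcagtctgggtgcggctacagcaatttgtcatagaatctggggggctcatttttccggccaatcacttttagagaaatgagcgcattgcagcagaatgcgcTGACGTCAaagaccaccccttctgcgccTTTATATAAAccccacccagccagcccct
Peg3, chr7:6730420-6730669, - strand: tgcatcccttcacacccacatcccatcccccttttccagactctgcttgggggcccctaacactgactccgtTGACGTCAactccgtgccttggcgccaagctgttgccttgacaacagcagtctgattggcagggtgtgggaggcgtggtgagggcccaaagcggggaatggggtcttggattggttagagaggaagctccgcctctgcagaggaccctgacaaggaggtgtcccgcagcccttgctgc

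Both strands were searched for 6 motifs in the 250 bases before each start, in these genes and in all 32851 promoter entries. TGACGTCA was found in Meg3, from 57 to 50 bases before the start, and in Peg3, from 178 to 171 bases before it, and 1.55% of all entries hold it. GCATGCGC was found in Nnat at a pair of overlapping positions and in Ndn once, and 2.26% of entries hold it. CCAAT was found in Meg3 and Peg3, with 33.8% of entries holding it, and TATAAA in Meg3 at overlapping positions on opposite strands, with 12.4%. GGGCGG, held by 32.7% of entries, and CACGTG, held by 6.02%, were in none of the 5 windows, and Dlk1 held none of the 6 motifs. CpG dinucleotides numbered 8 in the Dlk1 window, 12 in Nnat, 10 in Meg3, 8 in Peg3 and 5 in Ndn. A match of letters is not evidence that a factor binds there.

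The microRNA row with the most reads inside Rian was Mir1188 (1524 reads over 48 libraries) and that inside Mirg was Mir134 (1266 reads). Their mature RNAs are shown with the seed, bases 2 to 8, in capitals, and the 4 seeds differ from one another. 
mmu-miR-1188-5p: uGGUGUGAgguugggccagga
mmu-miR-1188-3p: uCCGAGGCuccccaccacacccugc
mmu-miR-134-5p: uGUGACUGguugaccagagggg
mmu-miR-134-3p: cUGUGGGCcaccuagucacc 
These rows count RNA-seq reads over the hairpin genes and do not measure the mature microRNAs.

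Per transcript length, population means ranged less widely, as a ratio, for Meg3, Peg3 and Ndn than for Nnat and Peg10. Mean FPKM of a population ranged from 118 to 880 for Meg3, from 48.9 to 221 for Peg3 and from 33.1 to 144 for Ndn, so the highest level was 7.46, 4.52 and 4.35 times the lowest. Nnat ranged from 2.28 to 1121 FPKM, a ratio of 492, and Peg10 from 0.547 to 23.9 FPKM, a ratio of 43.7. Dlk1 ranged from 0 to 26.3 FPKM. All 6 genes differed among the 16 populations (edgeR F test, adjusted p = 1.13e-08 for Dlk1, 1.27e-05 for Meg3, 6.36e-14 for Peg3, 3.92e-05 for Ndn, 5.31e-14 for Nnat and 2.5e-13 for Peg10), in a test that called 65.3% of all genes. Libraries of 1 population varied little for Peg3, with a median coefficient of variation of 6.46%, and more for Ndn (21.8%), Meg3 (30.6%), Peg10 (34.5%) and Nnat (34.7%). For Dlk1 it was 52.6%, over populations with a mean above 1 CPM. With the populations of each gene placed in order of mean level, the libraries of neighbours were fully apart in 2 of 15 neighbouring pairs for Dlk1, 1 for Meg3, 5 for Peg3, 1 for Ndn, 2 for Nnat and 0 for Peg10.

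**Figure D1:**
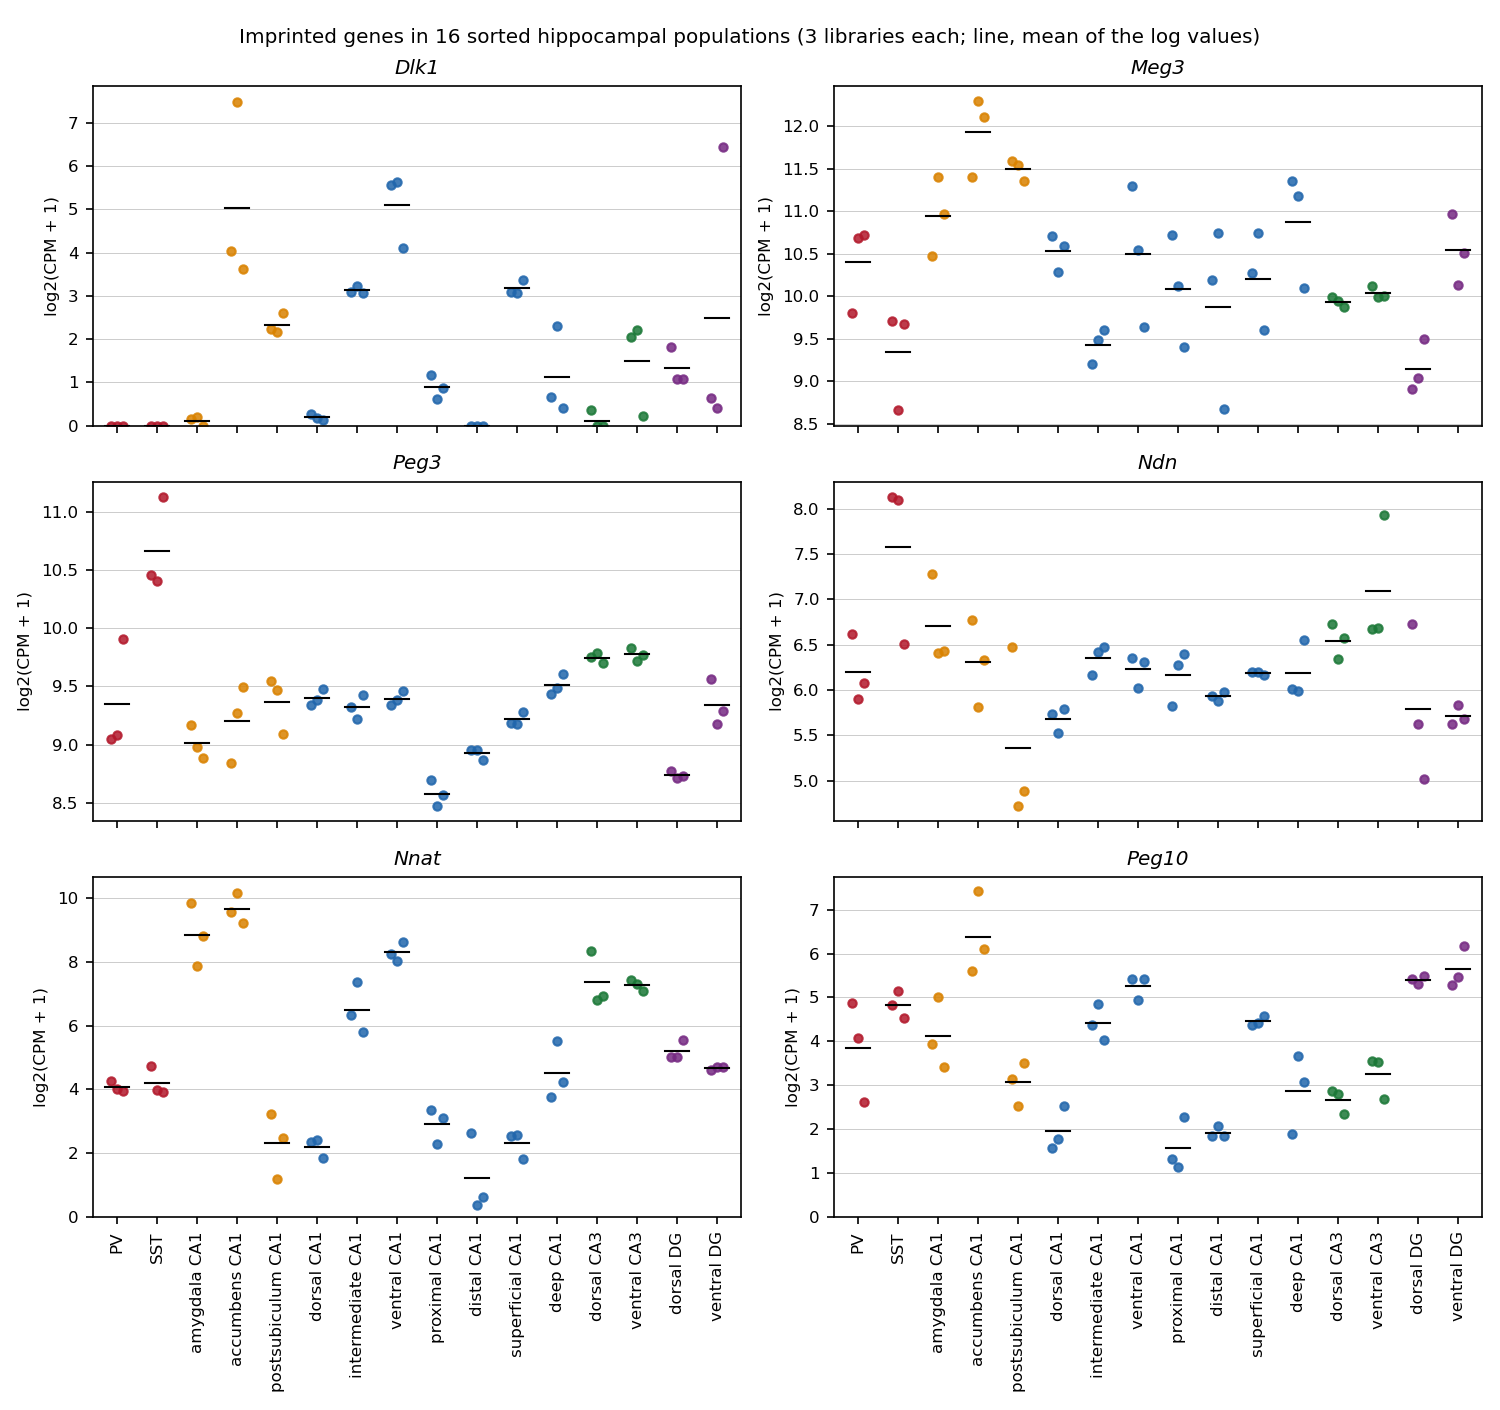
Levels of the 6 measured imprinted genes as log2(CPM + 1) in each library of 16 populations, with the mean of the log values as a line. Interneurons are red, CA1 cells sorted by projection orange, other CA1 cells blue, CA3 green and DG purple. Dlk1 is at 0 in PV, SST and distal CA1 libraries, Nnat is highest in accumbens-projecting cells (mean 835 CPM), and Peg3 is highest in SST cells (mean 1662 CPM).

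In order of mean level, Dlk1 was highest in accumbens-projecting cells (67.9 CPM), ventral CA1 (37.1 CPM), ventral DG (28.7 CPM), superficial CA1 (8.05 CPM) and intermediate CA1 (7.77 CPM). Every intermediate library was above those of the next in order, postsubiculum-projecting cells (4.07 CPM), which were followed by ventral CA3 (2.33 CPM), deep CA1 (1.6 CPM), dorsal DG (1.58 CPM) and proximal CA1 (0.868 CPM). Every proximal library was above those of dorsal CA1 (0.142 CPM), next to which came dorsal CA3 (0.0914 CPM) and amygdala-projecting cells (0.0842 CPM), and distal CA1, SST and PV cells held no read. These gaps hold between neighbours only, since some libraries of ventral DG and ventral CA3 lay below them. Meg3 had neighbours fully apart once, at dorsal CA3 (978 CPM) and the population below it, and 4 CA1 populations higher in the order had libraries that overlapped those below. The lowest were intermediate CA1 (693 CPM), SST cells (684 CPM) and dorsal DG (575 CPM), and above dorsal CA3 the levels ran with overlap at each step from ventral CA3 (1051 CPM), distal CA1 (1098 CPM), proximal CA1 (1157 CPM), superficial CA1 (1244 CPM), PV cells (1406 CPM), dorsal CA1 (1485 CPM), ventral DG (1527 CPM), ventral CA1 (1598 CPM), deep CA1 (2011 CPM), amygdala-projecting cells (2041 CPM) and postsubiculum-projecting cells (2892 CPM) up to accumbens-projecting cells (4041 CPM).

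Peg3 was highest in SST cells (1662 CPM), whose libraries were above all others, followed by ventral and dorsal CA3 (876 and 858 CPM). Below them, with PV replicate 3 (959 CPM) as an exception, a run of 9 overlapping neighbours went from deep CA1 (728 CPM) through PV cells (677 CPM), dorsal CA1 (674 CPM), ventral CA1 (673 CPM), postsubiculum-projecting cells (667 CPM), ventral DG (652 CPM), intermediate CA1 (641 CPM) and accumbens-projecting cells (598 CPM) to superficial CA1 (594 CPM). Amygdala-projecting cells (517 CPM) and distal CA1 (485 CPM) followed, with some overlap with populations above. Every library of dorsal DG (427 CPM) was below all of these, and every library of proximal CA1 (382 CPM) below all others. Ndn ran from SST cells (214 CPM), ventral CA3 (148 CPM), amygdala-projecting cells (108 CPM), dorsal CA3 (93.1 CPM), accumbens-projecting cells (81.1 CPM), intermediate CA1 (81 CPM), ventral CA1 (74.3 CPM), PV cells (74 CPM), deep CA1 (72.8 CPM), proximal CA1 (72 CPM), superficial CA1 (71.9 CPM) and dorsal DG (61.7 CPM) to distal CA1 (60 CPM) with overlap at each step. Distal CA1 libraries were just above those of ventral DG (51.5 CPM), and the order ended with dorsal CA1 (50.6 CPM) and postsubiculum-projecting cells (47.4 CPM).

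Nnat fell into 3 tiers whose libraries did not overlap. The top held accumbens-projecting cells (835 CPM), amygdala-projecting cells (530 CPM), ventral CA1 (320 CPM), dorsal CA3 (186 CPM), ventral CA3 (154 CPM) and intermediate CA1 (99.7 CPM), and the middle dorsal DG (36.3 CPM), deep CA1 (25.1 CPM), ventral DG (24.4 CPM), SST cells (18.2 CPM) and PV cells (15.8 CPM). The lowest held proximal CA1 (6.91 CPM), postsubiculum-projecting cells (4.78 CPM), superficial CA1 (4.09 CPM), dorsal CA1 (3.65 CPM) and distal CA1 (1.98 CPM). Peg10 overlapped at every step, from accumbens-projecting cells (95.5 CPM), ventral DG (50.6 CPM), dorsal DG (41.3 CPM), ventral CA1 (37.8 CPM), SST cells (27.9 CPM), intermediate CA1 (21.1 CPM), superficial CA1 (20.9 CPM), amygdala-projecting cells (18.4 CPM) and PV cells (16.3 CPM) through ventral CA3 (8.93 CPM), postsubiculum-projecting cells (7.66 CPM), deep CA1 (7.27 CPM), dorsal CA3 (5.42 CPM), dorsal CA1 (3.03 CPM) and distal CA1 (2.79 CPM) to proximal CA1 (2.17 CPM).

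Along the long axis of CA1, Dlk1, Nnat and Peg10 were low in dorsal cells and high in ventral cells, and Ndn differed in the same direction by a small amount. Of the 6 genes, 4 were called between dorsal and ventral CA1, all lower in dorsal cells, in a comparison that called 15.1% of the genes tested in either direction and 7.95% as lower in dorsal cells. The median log2 fold change of the 6 was -2.16, against -0.01 over all genes. The members were chosen with earlier results of these data known, so these counts and medians are a description. Markers of other cells moved along the same axis. GABAergic markers summed to 0.558 to 2.02 CPM in dorsal, 13.7 to 19.1 CPM in intermediate and 17.2 to 35.6 CPM in ventral CA1, with Gad1 and Slc32a1 at 0 in all 3 dorsal libraries. Oligodendrocyte markers summed to 13.8 to 27.1 CPM in dorsal, 33.2 to 38.1 CPM in intermediate and 48.6 to 67.2 CPM in ventral CA1, almost all Mbp, with Mag at 0 in ventral libraries. Immature neuron markers summed to 13.3 to 30.8 CPM in dorsal, 33.4 to 46.2 CPM in intermediate and 56.7 to 59.8 CPM in ventral CA1, mostly Dcx and Neurod1. Fibroblast markers summed to at most 0.102 CPM in dorsal and 0.285 CPM in intermediate CA1. In ventral CA1 they summed to 9.27, 3.62 and 0.115 CPM. Choroid plexus markers went the other way, from 34.7 to 72.9 CPM in dorsal and 30.4 to 39.8 CPM in intermediate to 3.01 to 5.25 CPM in ventral CA1. The part of these cells in the values was not tested.

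Dlk1 encodes a transmembrane ligand of the EGF-repeat family related to Notch ligands, known for holding precursor cells undifferentiated. It measured 0.199, 0.137 and 0.0902 CPM in dorsal CA1, 7.55, 8.43 and 7.32 CPM in intermediate CA1, and 46, 48.9 and 16.3 CPM in ventral CA1, so the populations did not overlap. The dorsal values rest on 11 reads in all. Each step was called: the log2 fold change was -5.72 (SE 0.535, adjusted p = 1.96e-06) for dorsal against intermediate, -2.27 (SE 0.406, adjusted p = 0.00183) for intermediate against ventral and -7.99 (SE 0.559, adjusted p = 1.1e-08) for dorsal against ventral. The dorsal to intermediate step was not called with limma on FPKM (-1.62, adjusted p = 0.0937) or in the fit of all 48 libraries (-5.70, adjusted p = 0.0968), nor was the intermediate to ventral step in that fit (-2.25, adjusted p = 0.821). Dorsal against ventral stayed called in every alternative run, at -8.35 to -3.55 with adjusted p up to 0.00264.

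Nnat encodes neuronatin, a small proteolipid of the endoplasmic reticulum membrane linked to calcium handling. It measured 4.11, 4.27 and 2.57 CPM in dorsal CA1, 79.7, 164 and 54.9 CPM in intermediate CA1, and 305, 260 and 395 CPM in ventral CA1, again without overlap. The log2 fold change was -4.80 (SE 0.435, adjusted p = 0.000281) for dorsal against intermediate and -6.50 (SE 0.463, adjusted p = 1.16e-05) for dorsal against ventral. The step between intermediate and ventral cells, -1.70 (SE 0.367, adjusted p = 0.0308), was not called when dorsal replicate 1 or 2, intermediate replicate 1, or ventral replicate 1 or 3 was left out, with adjusted p = 0.0666, 0.0734, 0.113, 0.0979 and 0.0775, nor without a filter (adjusted p = 0.106) or in the fit of all 48 libraries (adjusted p = 0.511).

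Peg10, a retrotransposon-derived gene that encodes Gag- and Pol-like proteins, measured 1.95, 2.39 and 4.73 CPM in dorsal CA1, 19.8, 27.9 and 15.4 CPM in intermediate CA1, and 41.5, 29.9 and 42 CPM in ventral CA1. Dorsal libraries lay below all others. The log2 fold change was -2.84 (SE 0.373, adjusted p = 9.95e-05) for dorsal against intermediate and -3.70 (SE 0.384, adjusted p = 1.21e-06) for dorsal against ventral, while intermediate against ventral, -0.86 (SE 0.347), was not called at adjusted p = 0.19. Of the 6 genes, 4 were called between dorsal and intermediate cells, where 4.93% of all genes were called, and 2, Dlk1 and Nnat, between intermediate and ventral cells, where 5.03% were.

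Ndn encodes necdin, a MAGE-family protein of postmitotic neurons whose gene lies in the Prader-Willi region. It measured 52.1, 45.2 and 54.5 CPM in dorsal CA1, 70.5, 84.7 and 87.7 CPM in intermediate CA1, and 81, 63.8 and 78.2 CPM in ventral CA1. Dorsal cells were lower than intermediate cells by -0.72 on the log2 scale (SE 0.174, adjusted p = 0.0192) and lower than ventral cells by -0.61 (SE 0.174, adjusted p = 0.0199). The difference from ventral cells was lost when dorsal replicate 1, dorsal replicate 2, ventral replicate 1 or ventral replicate 3 was left out, at adjusted p = 0.0591, 0.101, 0.066 and 0.0607. That from intermediate cells was lost when dorsal replicate 1, dorsal replicate 2, intermediate replicate 2 or intermediate replicate 3 was left out, at adjusted p = 0.07, 0.105, 0.0792 and 0.0856. Neither was called in the fit of all 48 libraries (adjusted p = 0.624 for ventral and 0.779 for intermediate cells).

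Meg3 and Peg3 were not called on this axis. Meg3, a nuclear long noncoding RNA, measured 1669, 1242 and 1544 CPM in dorsal CA1, 589, 714 and 775 CPM in intermediate CA1, and 2508, 1490 and 798 CPM in ventral CA1. Intermediate libraries were below all others, with log2 fold changes of 1.06 for dorsal against intermediate (SE 0.409, adjusted p = 0.269) and -1.23 for intermediate against ventral (SE 0.411, adjusted p = 0.192). Without ventral replicate 3 they were called, at 1.06 (adjusted p = 0.0273) and -1.55 (adjusted p = 0.00966), and DESeq2 called the second, at adjusted p = 0.0296. Peg3, a zinc-finger transcription factor, averaged 674 ± 33.2 CPM in dorsal, 641 ± 44.2 CPM in intermediate and 673 ± 28.8 CPM in ventral CA1, with a log2 fold change of -0.06 (SE 0.0889, adjusted p = 0.769) for dorsal against ventral. Against this, Gm38393, the row that shares exons with Snrpn, was higher in dorsal cells, with 886 ± 59.9 CPM in dorsal, 553 ± 78.4 CPM in intermediate and 545 ± 67.3 CPM in ventral CA1 (dorsal against ventral 0.64, SE 0.11, adjusted p = 0.000331).

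Compared with CA1, the long axis was called different in CA3 for Nnat and Peg10, and in DG for these and for Meg3 and Peg3. With all libraries kept, Dlk1 and Ndn were called different in neither region. Nnat did not show a dorsal deficit in CA3 or DG, and Meg3 and Peg3, which were not called in CA1, were called in DG. None of the 6 genes was called by edgeR between dorsal and ventral CA3, where 4.97% of genes were, with 1 at an unadjusted p under 0.05 and none called by DESeq2. In DG 2 of 6 were called, against 19.4% of genes. The long axis in CA1 differed from that in CA3 by -3.38 for Dlk1 (SE 2.71, adjusted p = 0.751) and by 0.08 for Ndn (SE 0.491, adjusted p = 0.998). For Meg3 and Peg3 these values were -0.04 and -0.01. Within CA3, Ndn gave -0.67 (SE 0.347, adjusted p = 0.401), beside -0.61 in CA1. Within DG it gave 0.28 (SE 0.349, adjusted p = 0.613), and its long axis in CA1 differed from that in DG by -0.87 (SE 0.494, adjusted p = 0.292).

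Nnat measured 326, 111 and 120 CPM in dorsal CA3 and 172, 157 and 134 CPM in ventral CA3, with a log2 fold change of 0.27 (SE 0.3, adjusted p = 0.843). It measured 31.1, 31.5 and 46.3 CPM in dorsal DG and 23.2, 24.9 and 25.2 CPM in ventral DG, where dorsal libraries lay above ventral ones without a call (0.59, SE 0.309, adjusted p = 0.189). The long-axis difference of Nnat in CA1 was itself different from that in CA3, by -6.75 on the log2 scale (SE 0.472, adjusted p = 1.67e-08), and from that in DG, by -7.07 (SE 0.479, adjusted p = 1.86e-08).

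Peg10 averaged 5.42 ± 1.2 CPM in dorsal CA3 and 8.93 ± 3.02 CPM in ventral CA3, and 41.3 ± 2.75 CPM in dorsal DG and 50.6 ± 17.7 CPM in ventral DG, with overlapping libraries in both regions. Its long-axis difference in CA1 differed from that in CA3 by -2.96 (SE 0.543, adjusted p = 0.00193) and from that in DG by -3.40 (SE 0.542, adjusted p = 0.000361). These were 2 of 6 genes called for CA1 against CA3, where 3.52% of all genes were called, and 2 of the 4 called for CA1 against DG, where 9.71% were.

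Meg3 measured 480, 525 and 721 CPM in dorsal DG and 1999, 1122 and 1461 CPM in ventral DG, a log2 fold change of -1.39 (SE 0.28, adjusted p = 0.00191), and every dorsal library was below every ventral library. Peg3 measured 437, 418 and 425 CPM in dorsal DG and 755, 578 and 625 CPM in ventral DG, a log2 fold change of -0.59 (SE 0.105, adjusted p = 0.000447). In CA3 their log2 fold changes were -0.10 (SE 0.275) for Meg3 and -0.02 (SE 0.104) for Peg3. The long axis in CA1 differed from that in DG by 1.25 for Meg3 (SE 0.39, adjusted p = 0.04982) and by 0.56 for Peg3 (SE 0.148, adjusted p = 0.0189). With 1 of the 18 libraries of this fit left out, the Meg3 value stayed called only without ventral CA1 replicate 1, dorsal DG replicate 3 or ventral DG replicate 2, with adjusted p up to 0.132 in the other fits. It was not called with DESeq2's size factors (adjusted p = 0.0675), limma on FPKM (0.84, adjusted p = 0.228), no filter (adjusted p = 0.158) or the fit of all 48 libraries (adjusted p = 0.235). The Peg3 value was not called without dorsal CA1 replicate 3 or ventral DG replicate 1, at adjusted p = 0.0585 and 0.0592, nor with limma on FPKM (0.23, adjusted p = 0.507), no filter (0.59, adjusted p = 0.0521) or the fit of all 48 libraries (0.62, adjusted p = 0.13).

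In ventral DG Dlk1 rested on a single library. It measured 2.54, 1.1 and 1.1 CPM in dorsal DG and 0.558, 0.327 and 85.1 CPM in ventral DG, so that ventral replicate 3 stood far above every other DG library. The sum of 4 fibroblast markers was 6.48, 14.8 and 29.2 CPM in these ventral libraries and at most 1.14 CPM in dorsal DG. It was mostly Lum, at 6.31, 14.1 and 24.7 CPM, with Col1a1 at 0, 0.196 and 4.46 CPM. The part of these cells in the Dlk1 values was not tested. The log2 fold change was -4.15 (SE 1.53) and was not called, at adjusted p = 0.0661, and its direction turned without ventral replicate 3 (1.83, adjusted p = 0.295). It was called without ventral replicate 1 (-4.73, adjusted p = 0.0267) or ventral replicate 2 (-4.74, adjusted p = 0.0204), by DESeq2 (-4.17, adjusted p = 0.0335) and in the fit of all 48 libraries (-4.17, adjusted p = 0.0496), all of which hold ventral replicate 3. In CA3 Dlk1 measured 0.274, 0 and 0 CPM in dorsal cells and 3.16, 3.65 and 0.173 CPM in ventral cells, and was not called (-4.61, SE 1.79, adjusted p = 0.197) unless ventral DG replicate 3 was left out of the shared fit (-4.60, adjusted p = 0.0185). For the long axis in CA1 against that in DG, Dlk1 gave -3.84 (SE 2.12, adjusted p = 0.284), and -9.81 without ventral DG replicate 3 (adjusted p = 0.00111). Gm38393 was higher in dorsal cells in both regions, with 959 ± 47 CPM in dorsal CA3 and 676 ± 11.3 CPM in ventral CA3 (0.51, SE 0.122, adjusted p = 0.0151) and 566 ± 68.9 CPM in dorsal DG and 298 ± 39.3 CPM in ventral DG (0.95, SE 0.123, adjusted p = 1.86e-05). The CA3 call was lost without dorsal CA3 replicate 1 or 3 or ventral CA3 replicate 1 or 2, at adjusted p = 0.0706, 0.0505, 0.0563 and 0.076.

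**Figure D2:**
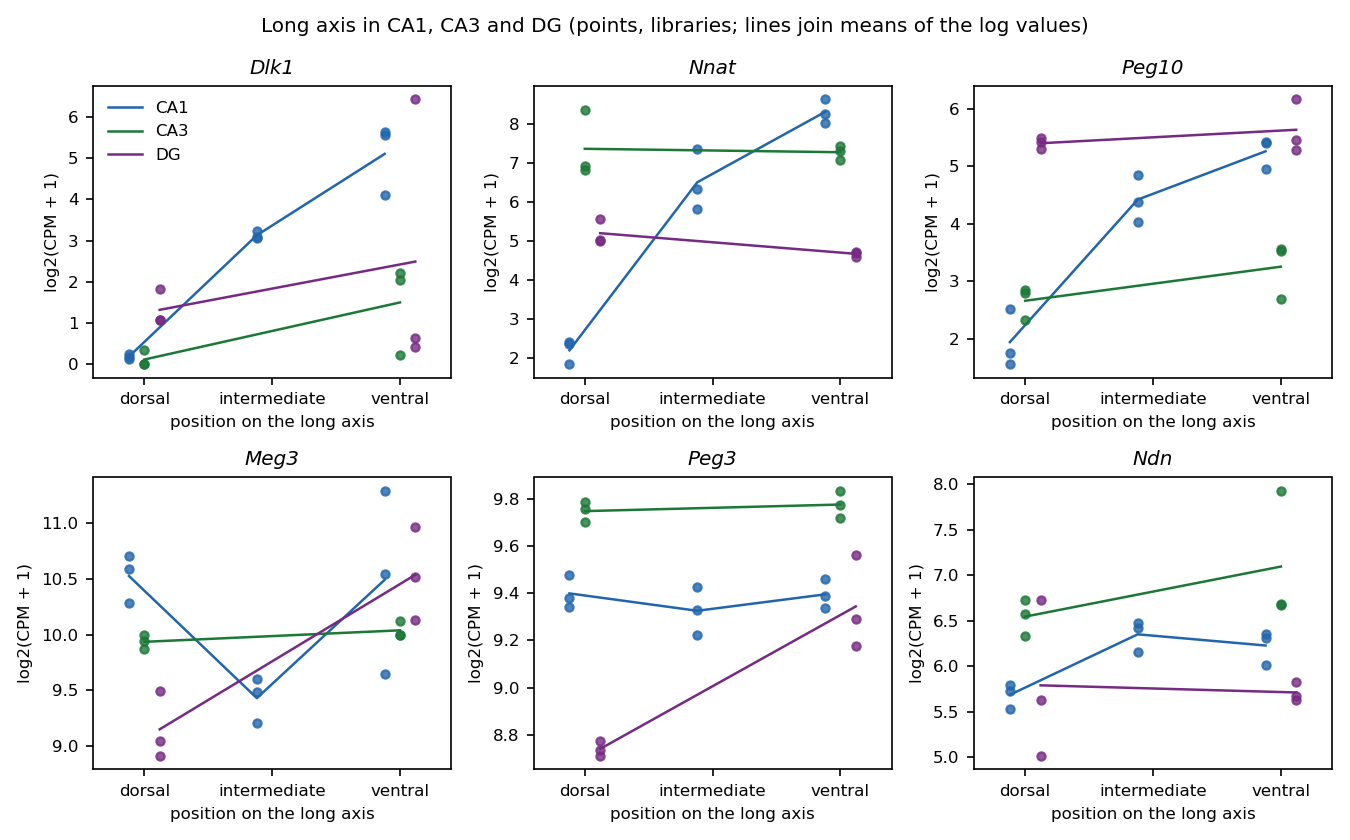
Levels of 6 imprinted genes as log2(CPM + 1) by position on the long axis in CA1, CA3 and DG. Points are libraries and lines join the means of the log values. CA1 is blue, CA3 green and DG purple. Nnat and Peg10 are low in dorsal CA1 (means 3.65 and 3.03 CPM) and higher at the other CA1 positions, and ventral DG holds 1 library with 85.1 CPM of Dlk1.

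Averaged over dorsal and ventral cells on the log scale, CA3 was the region with most Peg3, Ndn and Nnat, and DG that with most Peg10. CA1 against CA3 called 4 of 6 genes (13.5% of all genes), CA1 against DG 3 of 6 (33.1%) and CA3 against DG 5 of 6 (36.5%).

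Peg3 averaged 673 CPM in CA1, 867 CPM in CA3 and 539 CPM in DG, over 6 libraries each. Its log2 fold change was -0.34 for CA1 against CA3 (SE 0.0737, adjusted p = 0.00232), 0.36 for CA1 against DG (SE 0.0738, adjusted p = 0.000612) and 0.71 for CA3 against DG (SE 0.074, adjusted p = 1.78e-07). All CA3 libraries lay above all CA1 and all DG libraries. With limma on FPKM the difference from CA3 (-0.28, adjusted p = 0.0724) and that between CA1 and DG (0.13, adjusted p = 0.321) were not called.

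Nnat was 5.64 times as high in CA3 as in DG (2.50, SE 0.226, adjusted p = 2.23e-08), with no overlap between the 6 libraries of each. CA1 against CA3 gave -2.28 (SE 0.226, adjusted p = 2.17e-07), a mean of log values in which the low dorsal CA1 libraries weigh heavily, since ventral CA1 (320 ± 69 CPM) was above ventral CA3 (154 ± 19.2 CPM) and dorsal CA1 (3.65 ± 0.938 CPM) below dorsal CA3 (186 ± 122 CPM). Peg10 was lower in CA3 than in DG by -2.73 (SE 0.28, adjusted p = 1.38e-07), again without overlap, and lower in CA1 than in DG by -2.08 (SE 0.274, adjusted p = 4.57e-06). Ndn averaged 93.1 ± 12.8 CPM in dorsal CA3 and 148 ± 82.2 CPM in ventral CA3, where replicate 3 measured 243 CPM against 101 and 102 CPM in the others. Oligodendrocyte markers, summed over 5 genes, differed between the same libraries, at 189, 21.4 and 19.4 CPM in dorsal CA3 and 121, 160 and 25.1 CPM in ventral CA3. Ventral replicate 3, low in these markers, was the library high in Ndn and low in Dlk1, and dorsal replicate 1, high in them, was the library high in Nnat. Neuronal markers differed between the ventral CA3 libraries too, with Coch at 162, 168 and 25.1 CPM and Neurod6 at 225, 206 and 442 CPM. Grik4 was closer, at 69.4, 78 and 61.1 CPM. Their part in these values was not tested. Ndn was lower in CA1 than in CA3 by -0.92 (SE 0.247, adjusted p = 0.0141), a call lost without ventral CA3 replicate 3 (-0.64, adjusted p = 0.0714). It was higher in CA3 than in DG by 1.05 (SE 0.248, adjusted p = 0.00229).

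Meg3 was called higher in CA1 than in DG by 0.73 (SE 0.195, adjusted p = 0.00736). That call was lost with limma on FPKM, where the value was 0.17 (adjusted p = 0.561), and in the fit of all 48 libraries (0.72, adjusted p = 0.0794). Its difference between CA1 and CA3, 0.62 (SE 0.195, adjusted p = 0.0392), stayed called only without dorsal CA1 replicate 2, ventral CA1 replicate 3, ventral DG replicate 1 or ventral DG replicate 2, with values from 0.38 to 0.64 and adjusted p from 0.0523 to 0.148 in the other fits that left out 1 library, and was not called with limma on FPKM (0.42, adjusted p = 0.262), in the fit of all 48 libraries (adjusted p = 0.266) or without a filter on low counts (adjusted p = 0.158). Dlk1 was called lower in CA3 than in DG (-3.86, SE 1.16, adjusted p = 0.0151), but the call was lost without ventral DG replicate 3 (-0.85, adjusted p = 0.417) or dorsal DG replicate 1 (-3.58, adjusted p = 0.0625), with limma on FPKM (-0.78, adjusted p = 0.328) and without a filter (-3.85, adjusted p = 0.0599). Between CA1 and CA3 it gave 2.35 (SE 1.24, adjusted p = 0.271), and 2.34 without ventral DG replicate 3 (adjusted p = 0.0481).

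Among ventral CA1 cells sorted by target, Dlk1 separated cells that project to the amygdala from cells that project to the nucleus accumbens. It measured 0.104, 0.148 and 0 CPM in amygdala-projecting cells, 4 reads in all, and in accumbens-projecting cells 15.4, 177 and 11.2 CPM. The log2 fold change was -9.63 (SE 1.31, adjusted p = 0.0161). Dlk1 was among only 3 genes called there, 0.0231% of 12981 tested, and it was the only member of the 6. The call was lost without amygdala replicate 1, 2 or 3, at adjusted p = 0.0896, 0.0869 and 0.103, with log2 fold changes from -10.15 to -9.02, and limma on FPKM gave adjusted p = 0.202. Accumbens replicate 2 sets the mean, and every accumbens library was above every amygdala library.

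Amygdala-projecting cells were also below ventral CA1 cells taken without regard to target, in which Dlk1 measured 46, 48.9 and 16.3 CPM (-8.72, SE 1.28, adjusted p = 0.00133), the only call among the 6 genes where 2.38% of all genes were called. DESeq2 gave no adjusted p for Dlk1 in these fits. Accumbens-projecting and ventral cells overlapped for Dlk1 (0.91, SE 0.837, adjusted p = 0.698), and the sign turned without accumbens replicate 2 (-1.45, adjusted p = 0.368). Gm38393 was called higher in amygdala-projecting cells (903 ± 79.3 CPM) and in accumbens-projecting cells (829 ± 77 CPM) than in ventral CA1 (545 ± 67.3 CPM), at 0.74 and 0.63 (adjusted p = 0.0153 and 0.0408). The first call held only without amygdala replicate 3 or any 1 accumbens library, with adjusted p from 0.0525 to 0.14 in the other fits that left out 1 library, and the second only without amygdala replicate 2 or accumbens replicate 2, with 0.0507 to 0.286 in the others. The second was also lost without a filter (adjusted p = 0.0503) and with limma on FPKM (0.65, adjusted p = 0.076).

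The other members were not called between these populations. Nnat measured 912, 233 and 446 CPM in amygdala-projecting cells and, in accumbens-projecting cells, 757, 1152 and 597 CPM, and was above the ventral libraries (305, 260 and 395 CPM) in every accumbens library (1.42, SE 0.371, adjusted p = 0.0706). That value was called without amygdala replicate 1 (1.41, adjusted p = 0.0183) or 2 (1.42, adjusted p = 0.0221), which shared the fit, and without a filter (adjusted p = 7.61e-09). Peg10 measured 14.4, 31.1 and 9.64 CPM in amygdala-projecting cells and, for the accumbens target, 47.2, 171 and 68.2 CPM, which did not overlap (-2.40, SE 0.534, adjusted p = 0.274), and it was called by DESeq2 (adjusted p = 0.00136), without a filter (4.58e-05) and in the fit of all 48 libraries (0.0112). Meg3 had its highest level of all populations in accumbens-projecting cells, at 2700, 5014 and 4409 CPM, with 1417, 2704 and 2003 CPM for the amygdala target and 2508, 1490 and 798 CPM in ventral cells at large. Accumbens against ventral gave 1.37 (SE 0.417, adjusted p = 0.173). In separate runs it was called by edgeR without ventral replicate 1 (1.85, adjusted p = 0.019), by limma on FPKM of all libraries (1.82, adjusted p = 0.0307), and by edgeR without a filter (adjusted p = 1.56e-14). For accumbens against ventral cells edgeR called none of the 6 genes, 3 had an unadjusted p under 0.05, DESeq2 called 0 and limma 1, while 2.04% of all genes were called by edgeR. The endothelial sum that stood higher in these cells was mostly Kdr, at 31.3 to 95.9 CPM in the amygdala libraries and 10.6 to 52.7 CPM in the accumbens libraries, with Cldn5 at 0 in all 6, and accumbens replicate 3 held 637 CPM of SST-cell markers. Their part in these values was not tested.

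Dorsal CA1 cells that project to the postsubiculum had more Meg3 and more Dlk1 than dorsal CA1 cells in general. Meg3 measured 3073, 2984 and 2620 CPM in postsubiculum-projecting cells, against 1669, 1242 and 1544 CPM in dorsal cells (1.00, SE 0.112, adjusted p = 0.000339), a call lost in the fit of all 48 libraries (0.96, adjusted p = 0.227). Dlk1 measured 3.68, 3.46 and 5.08 CPM, against 0.199, 0.137 and 0.0902 CPM in dorsal cells (4.82, SE 1.07, adjusted p = 0.0155), and this call was lost without dorsal replicate 1, 2 or 3, at 5.11, 4.76 and 4.59 with adjusted p = 0.0731, 0.101 and 0.0793, and in the fit of all 48 libraries (4.77, adjusted p = 0.0626). No library of either gene overlapped between the populations. These were 2 of 6 genes called, against 10.8% of all genes. Nnat averaged 4.78 ± 3.58 CPM in postsubiculum-projecting cells and 3.65 ± 0.938 CPM in dorsal cells (0.43, SE 0.805, adjusted p = 0.783).

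Across the cell layer, Nnat was lower in superficial than in deep CA1 cells, and Dlk1 and Peg10 lay in the other direction without a call. Nnat measured 4.83, 4.94 and 2.5 CPM in superficial cells and 12.4, 45.3 and 17.7 CPM in deep cells (-2.67, SE 0.56, adjusted p = 0.0275), the only call among the 6 genes, against 2.48% of all genes. It was lost without superficial replicate 1, 2 or 3 or deep replicate 2, at adjusted p = 0.118, 0.131, 0.137 and 0.115, and in the fit of all 48 libraries (adjusted p = 0.0892). GABAergic markers summed to 16.6, 17.3 and 197 CPM in superficial and 255, 599 and 1022 CPM in deep libraries. Deep replicate 2 was the highest deep library for Nnat, Dlk1 and Peg10. In deep libraries fibroblast markers summed to 0.0637, 21.1 and 0 CPM, oligodendrocyte markers to 25.8, 99.8 and 16 CPM and granule cell markers to 7.32, 25.6 and 11.7 CPM. In superficial libraries these sums reached 1.11, 42 and 12.6 CPM. The part of all these markers in the differences was not tested. Among PV libraries Nnat averaged 15.8 ± 2.13 CPM, and among SST libraries 18.2 ± 6.41 CPM.

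Dlk1 measured 7.53, 7.31 and 9.32 CPM in superficial cells and 0.573, 3.9 and 0.32 CPM in deep cells (2.28, SE 0.911, adjusted p = 0.274), and was called without deep replicate 2 (4.10, adjusted p = 0.0305). Peg10 measured 19.7, 20.4 and 22.7 CPM in superficial cells and 2.67, 11.7 and 7.44 CPM in deep cells (1.47, SE 0.519, adjusted p = 0.205). Superficial libraries were above all deep ones for both genes. Peg3 averaged 594 ± 23.5 CPM in superficial and 728 ± 43.9 CPM in deep cells, with no overlap and an adjusted p of 0.05005 (-0.35, SE 0.0839). DESeq2 called it, at adjusted p = 0.00773. Meg3 measured 1237, 1718 and 776 CPM in superficial cells and 2627, 2311 and 1094 CPM in deep cells. It was not called (-0.75, SE 0.472, adjusted p = 0.609), but was called by edgeR with a replicate block (-0.73, adjusted p = 0.00289).

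Between proximal and distal CA1, edgeR and DESeq2 called none of the 6 genes, 2 had an unadjusted p under 0.05 in edgeR, and 1.06% of all genes were called. Dlk1 measured 1.24, 0.534 and 0.831 CPM in proximal cells, and no distal library held a read, where 3 reads would be 0.113 to 0.136 CPM. The difference was not called (adjusted p = 0.124). Peg3 was lower in proximal cells, at 382 ± 29.4 CPM against 485 ± 17.1 CPM in distal cells, without overlap and without a call (-0.34, SE 0.108, adjusted p = 0.173). GABAergic markers summed to 256, 2.91 and 2.17 CPM in proximal libraries and 5.54 to 9.76 CPM in distal ones. PV-cell markers summed to 118, 0.776 and 1.01 CPM in proximal and 11 to 16 CPM in distal libraries. Oligodendrocyte markers summed to 36.6, 28.3 and 226 CPM in proximal and 23 to 58.5 CPM in distal libraries. The part of these markers in the values was not tested.

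SST cells were above dorsal CA1 pyramidal cells in Peg3, Ndn, Nnat and Peg10 and below them in Meg3, and PV cells were above them in Nnat and Peg10. The dorsal CA1 libraries are shared by both comparisons. SST cells differed in 5 of 5 genes tested, against 27.4% of all genes, and PV cells in 2 of 5, against 29.7%. Dlk1 was not tested, since no PV or SST library held a read, where 3 reads would be 0.113 to 0.124 CPM in PV and 0.14 to 0.17 CPM in SST libraries. Between PV and SST cells 1 of 5 genes was called by edgeR, against 3.51% of all genes, and 3 by DESeq2.

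Peg3 measured 530, 542 and 959 CPM in PV cells and, in SST cells, 1400, 1351 and 2234 CPM, which did not overlap (-1.32, SE 0.282, adjusted p = 0.0298). The call was lost without PV replicate 1 (-1.18, adjusted p = 0.176) or 2 (-1.18, adjusted p = 0.128), and with limma on FPKM (-1.14, adjusted p = 0.0693). Against dorsal CA1 (647, 665 and 711 CPM) SST cells were higher by 1.30 (SE 0.258, adjusted p = 0.00244), and PV cells gave -0.02 (SE 0.253, adjusted p = 0.976).

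Ndn measured 97.1, 58.7 and 66.3 CPM in PV cells and, in SST cells, 279, 273 and 90.1 CPM (-1.55, SE 0.4, adjusted p = 0.0665). In separate runs it was called by edgeR without SST replicate 3 (-1.91, adjusted p = 0.00169), by DESeq2 with all libraries (adjusted p = 0.00216), by edgeR without a filter (0.00345) and in the fit of all 48 libraries (0.00801). SST cells were above dorsal CA1 by 2.07 (SE 0.369, adjusted p = 0.0012). Meg3 went the other way in SST cells, with 832, 403 and 816 CPM, against 1669, 1242 and 1544 CPM in dorsal CA1 (-1.13, SE 0.289, adjusted p = 0.0119), while PV cells held 895, 1644 and 1679 CPM and overlapped dorsal CA1. The SST call was lost with limma on FPKM (-0.54, adjusted p = 0.182) and in the fit of all 48 libraries (-1.12, adjusted p = 0.0534). PV against SST cells gave 1.01 for Meg3 (SE 0.312, adjusted p = 0.123), which DESeq2 called, at adjusted p = 0.0313.

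Nnat averaged 15.8 ± 2.13 CPM in PV cells (4.29-fold, SE of the log2 value 0.449, adjusted p = 0.00351) and 18.2 ± 6.41 CPM in SST cells (2.31, SE 0.452, adjusted p = 0.00226), against 3.65 ± 0.938 CPM in dorsal CA1. Peg10 measured 28.1, 15.8 and 5.08 CPM in PV cells and, in SST cells, 27.4, 34.3 and 22.1 CPM, against 1.95, 2.39 and 4.73 CPM in dorsal CA1, with log2 fold changes of 2.41 (SE 0.606, adjusted p = 0.00961) and 3.19 (SE 0.625, adjusted p = 0.00223). Every interneuron library lay above every dorsal CA1 library for both genes. With limma on FPKM the Peg10 difference of PV cells was not called (1.34, adjusted p = 0.0551). In SST libraries microglial markers summed to 28.9, 28.9 and 69.2 CPM and oligodendrocyte markers to 143, 735 and 50.4 CPM. The sums in PV libraries were 0.495, 2.76 and 0.203 CPM and 16.6, 34.3 and 5.2 CPM. The part of these markers in the values was not tested.

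**Figure D3:**
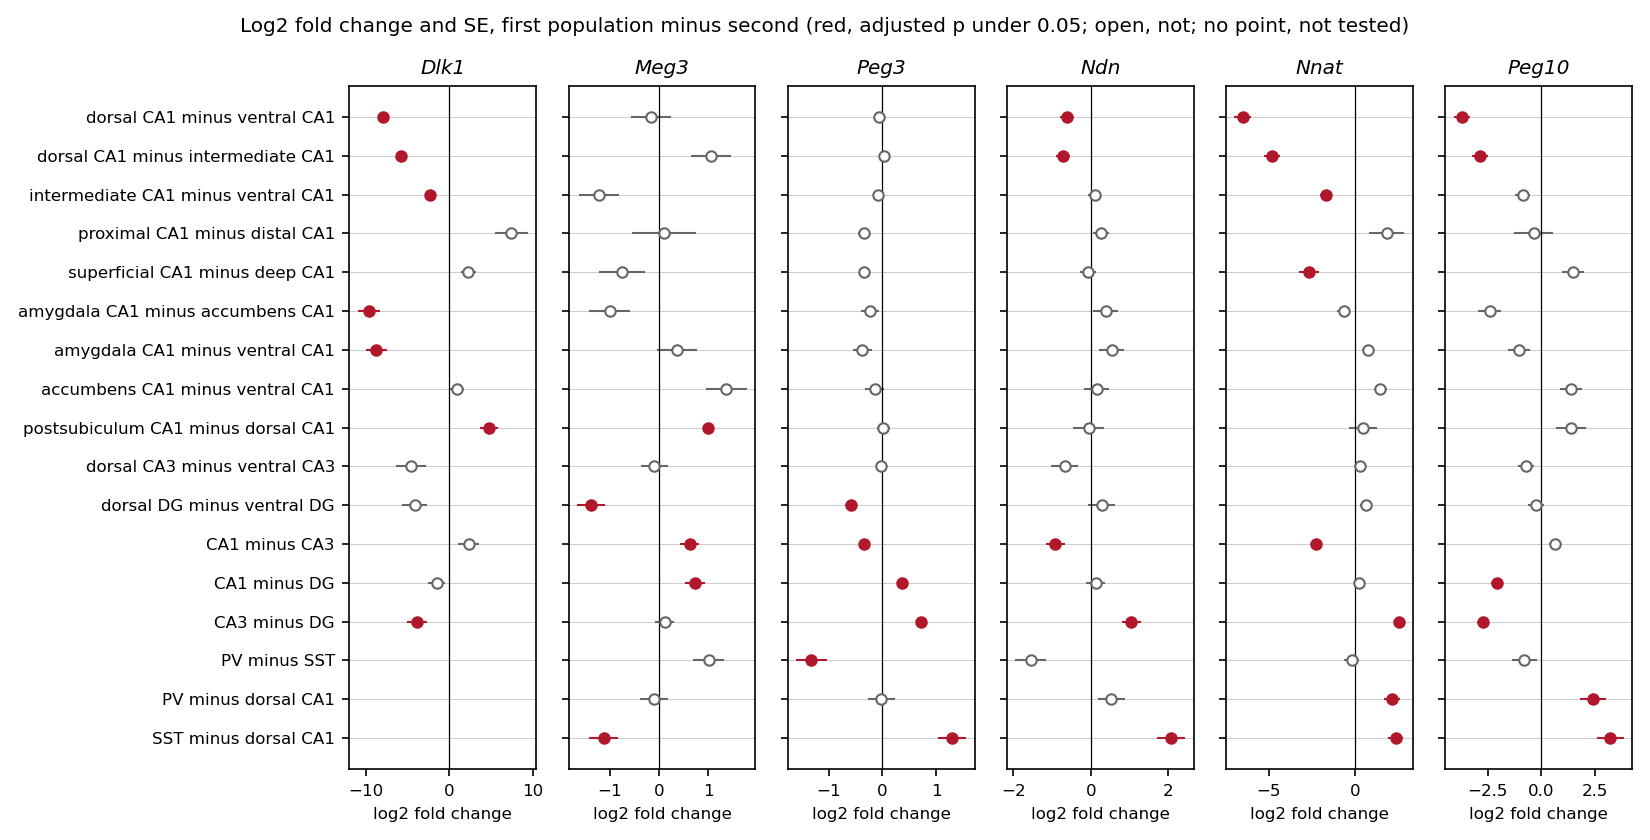
Log2 fold changes of 6 imprinted genes in 17 comparisons from edgeR, as the first population minus the second, with the SE as a bar. Each panel has its own horizontal scale, filled red points have an adjusted p under 0.05, and Dlk1 has no point where it was not tested. Dlk1, Nnat and Peg10 are negative for dorsal minus ventral CA1, at -7.99, -6.50 and -3.70.

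The small RNA rows inside Rian followed Meg3 closely. Of 16 such rows 14 held reads, 19553 over all libraries, and of 12 rows inside Mirg 10 held reads, 3215 in all. The Rian rows summed to 64.4, 54.7 and 57.8 CPM in postsubiculum-projecting cells, against 20.9, 15.7 and 38.7 CPM in dorsal CA1. They summed to 10.8, 7.17 and 5.77 CPM in dorsal DG, against 32.4, 29.8 and 32.9 CPM in ventral DG, and were lowest in SST cells, at 8.28, 2.52 and 7.24 CPM. In both pairs the libraries did not overlap, and the direction was that of Meg3. Accumbens-projecting cells, highest for Meg3, had 31.3, 51.1 and 30.6 CPM of these rows, beside 18.9, 64.4 and 75.2 CPM in amygdala-projecting cells.

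Over the 48 libraries, Meg3 and the Rian sum had a Pearson correlation of 0.86 on the log2(CPM + 1) scale, and of 0.77 after each population's mean was taken out. For the Mirg rows these were 0.45 and 0.35. The points share library and depth, so the correlations are a description. In DG, 3 of 12 tested Rian rows were called, all lower in dorsal cells, a share of 25% beside 19.4% of all genes. Between postsubiculum-projecting and dorsal CA1 cells 0 of 12 were called, beside 10.8% of all genes. Between SST and dorsal CA1 cells 0 of 11 were called, beside 27.4%. Reads of the host RNA and of the small RNAs inside it cannot be told apart in these counts. Mature microRNAs were not measured.

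**Figure D4:**
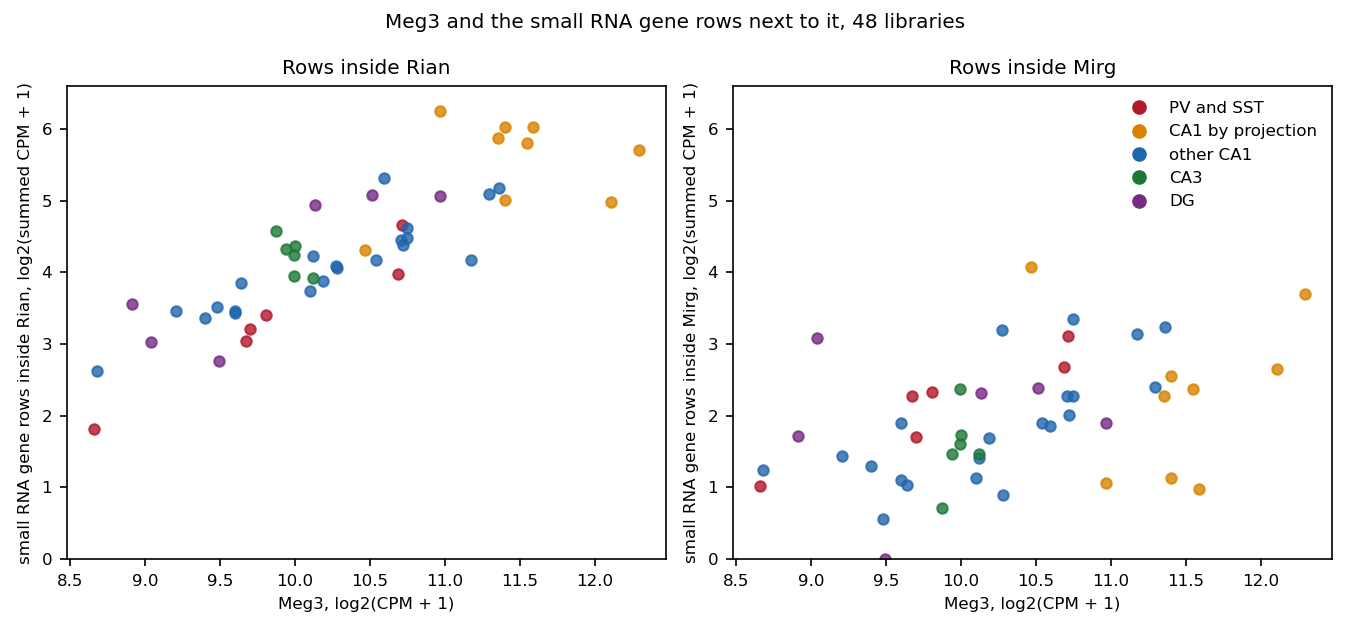
Meg3 level against the summed level of small RNA gene rows inside Rian (left) and Mirg (right), both as log2(CPM + 1), for 48 libraries (PV and SST red, CA1 by projection orange, other CA1 blue, CA3 green, DG purple). The Pearson correlation is 0.86 for the Rian rows and 0.45 for the Mirg rows.

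The gene whose population means were most like those of Meg3, among 10785 named genes with a mean of at least 10 CPM in some population, was AF357425, a small nucleolar RNA row inside Rian (Pearson r = 0.955 over 16 populations on the log2(CPM + 1) scale), followed by Dnaaf5 (0.861) and Snhg11 (0.857), a long noncoding RNA. For the others the most similar genes were Gas8 (0.822), Ap1g2 and Rsph4a for Dlk1, Layn (0.887), Unc13c and Sparc for Peg3, Adgrg1 (0.845), Cd81 and Tuba1b for Ndn, Icosl (0.917), Lrrk2 and Actn2 for Nnat, and Igfbp5 (0.845), N4bp2 and Pitrm1 for Peg10. Between members, r was 0.64 for Ndn and Peg3, 0.63 for Dlk1 and Peg10, 0.55 for Nnat and Peg10, 0.42 for Dlk1 and Nnat, and 0.38 for Dlk1 and its neighbour Meg3.

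A list of 45 other imprinted genes was read beside the members, and 39 had a row. Between dorsal and ventral CA1, 12 of 30 tested were called, 3 higher and 9 lower in dorsal cells, while 15.1% of all genes were called and 7.95% as lower. The list, also chosen with earlier results of these data known, had a median log2 fold change of -0.33 against -0.01 over all genes. Dio3, the deiodinase that inactivates thyroid hormone and the gene at the far end of the Dlk1-Meg3 cluster, averaged 0.0397 ± 0.00547 CPM in dorsal CA1 and 17.5 ± 9.95 CPM in ventral CA1 (-8.56, adjusted p = 8.31e-07). Grb10, an adaptor that restrains insulin and growth factor signalling, averaged 3.62 ± 0.329 CPM in dorsal CA1 and 58.1 ± 30.6 CPM in ventral CA1 (-4.07, adjusted p = 7.44e-08), and Plagl1, a zinc-finger transcription factor, 3.05 ± 1.28 CPM in dorsal CA1 and 20.3 ± 11.8 CPM in ventral CA1 (-2.80, adjusted p = 0.000413). Mest (-2.16), Blcap (-1.51), whose gene surrounds Nnat, and Dcn (-8.44), also in the CA1 marker list used here, were the others named by size of change.

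In CA3 5 of 33 were called, 1 higher and 4 lower in dorsal cells, and in DG 12 of 33, 2 higher and 10 lower in dorsal cells, while 4.97% and 19.4% of all genes were called there. Plagl1 was lower in dorsal cells in both, with 6.11 ± 2 CPM in dorsal CA3 and 88.1 ± 60.6 CPM in ventral CA3 (-3.84, adjusted p = 0.000965), and 2.45 ± 2.52 CPM in dorsal DG and 37.5 ± 11.3 CPM in ventral DG (-3.92, adjusted p = 0.000568). Rasgrf1, a Ras exchange factor of neurons, was higher in dorsal DG, at 1403 ± 230 CPM against 580 ± 108 CPM in ventral DG (1.29, adjusted p = 2.58e-06). Mest, an imprinted hydrolase gene, averaged 146 ± 22.5 CPM for the amygdala target and 213 ± 56.3 CPM for the accumbens target, with 50.2 ± 12.1 CPM in ventral CA1 at large (adjusted p = 0.00625 and 0.000836), the only call on the list in either comparison of 32 genes tested, where 2.38% and 2.04% of all genes were called.

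In interneurons, 14 of 32 were called for PV and 12 of 32 for SST cells against the same dorsal CA1 libraries, where 29.7% and 27.4% of all genes were called. Grb10 averaged 127 ± 17.2 CPM in PV and 122 ± 25.7 CPM in SST cells, against 3.62 ± 0.329 CPM in dorsal CA1 (5.11 and 5.07, adjusted p = 5.42e-08 and 8.24e-08). Nap1l5, a nucleosome assembly protein-like gene, averaged 754 ± 140 CPM in PV and 956 ± 222 CPM in SST cells, against 104 ± 14 CPM in dorsal CA1 (2.84 and 3.19, adjusted p = 1.07e-06 and 5.07e-07). Usp29, the neighbour of Peg3, was higher in SST cells, with 16.1 ± 9.75 CPM in PV cells and, in SST cells, 73.3 ± 27.5 CPM (-2.22, adjusted p = 0.0475), the direction of Peg3, and 2 of 31 genes on the list were called there, both lower in PV cells, beside 3.51% of all genes.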

How the data were processed

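RNA of 48 libraries from 16 populations was measured by RNA-seq. Per the labels' protocols, total RNA with ERCC spike-ins was amplified with Ovation RNA-seq v2. The authors deposited raw read counts per Ensembl gene, an FPKM value per gene and library, and estimated counts of fragments in the same FPKM table, which were not tested. Tools named in the submitters' processing notes are HTSeq, DESeq2, Cuffdiff 2.1.1 and TopHat2 2.0.6, and builds NCBIM37 and mm9, with no role given. Strand use in counting is not given in the sources used here, so overlapping antisense genes may share reads. ERCC and summary lines were left out, and reads outside genes made up 20.9% to 46.9% of reads in, between or outside genes.

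Gene names came from a GRCm38 annotation by identifier (32897 of 37620 matched), used otherwise only to find rows inside Rian, Mirg and Snrpn. Counts were fitted with edgeR 4.0.16 in R 4.3.3 (TMM, filterByExpr, robust quasi-likelihood F tests, Benjamini-Hochberg over all genes tested). Dorsal, intermediate and ventral CA1 shared a fit, as did amygdala-projecting, accumbens-projecting and ventral CA1, the 6 dorsal and ventral populations of CA1, CA3 and DG, and, for the contrasts with dorsal CA1, PV, SST and dorsal CA1. Other pairs, PV with SST included, were fitted alone. Alternatives were DESeq2 1.42.0 and its size factors, no filter, a replicate block, limma 3.58.1 on log2(FPKM + 1) for genes with at least 1 FPKM in 3 libraries, a fit of all 48 libraries, and each library left out. The edgeR script was tested on simulated counts.

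Every measured member is named. Other imprinted genes are named by size of change, up to 6 per comparison shown, among those called with at least 10 CPM in the higher group. The members and lists were chosen with earlier results of these data known. The series calls the libraries biological replicates, but no label ties them to separate animals, and p-values therefore reflect only the spread between these samples. Replicates carry the count table's numbers, 1 to 3. Floors of 3 reads cover counting error only, since amplified reads are not independent molecules.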

Additional observations from a re-analysis of the deposited data

Results flagged for a closer look

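The long-axis difference, dorsal minus ventral, differed between regions for 4 genes by the interaction test of edgeR. Between CA1 and CA3 it differed for Nnat by -6.75 and for Peg10 by -2.96 on the log2 scale. Between CA1 and DG it differed for Nnat by -7.07, for Peg10 by -3.40, for Meg3 by 1.25 and for Peg3 by 0.56. For Nnat and Peg10 the steeper side was CA1, where dorsal cells were lower. For Meg3 and Peg3 it was DG, where dorsal cells were lower. With 3 libraries in each population, single libraries were not tested as outliers.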

How the results depend on the processing

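No called result changed sign under any alternative run. Of 51 gene results called, 269 of 303 values under other settings stayed called and 34 did not, and of 79 not called, 21 of 470 values were called and 19 changed sign without a call. Leaving out 1 library lost the call in 75 of 663 values gained one in 12 of 867 and changed the sign of an uncalled value in 46. Counts of members called that moved by over 1.5 times are given here, the main count in brackets. With DESeq2 they were 3 for PV minus SST (1), 2 for superficial minus deep (1) and 0 for amygdala minus ventral (1), where DESeq2 gave Dlk1 no adjusted p. DESeq2's size factors in edgeR gave 2 for superficial minus deep. Limma on FPKM gave 2 for CA1 minus CA3 (4), 1 for CA1 minus DG (3), 0 for PV minus SST (1), 1 for PV minus dorsal (2), 1 for accumbens minus ventral (0), 0 for amygdala minus accumbens (1), 1 for postsubiculum minus dorsal (2) and 2 for the long axis in CA1 minus DG (4). Without a filter on low counts they were 3 for PV minus SST, 2 for accumbens minus ventral, 3 for amygdala minus accumbens, 2 for amygdala minus ventral, 1 for intermediate minus ventral (2) and 2 for the long axis in CA1 minus DG. The fit of all 48 libraries gave 2 for amygdala minus accumbens, 2 for PV minus SST, 2 for dorsal minus intermediate (4), 0 for intermediate minus ventral, 2 for the long axis in CA1 minus DG, 0 for postsubiculum minus dorsal and 0 for superficial minus deep. The cause of these changes was not tested.

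Over all genes, same-numbered libraries did not deviate together: in 0 of 14 comparisons did all 3 pairs correlate over 0.1 (r from -0.044 to 0.07). For Meg3, replicate 3 was the lowest library of ventral, proximal, distal, superficial and deep CA1, but not of dorsal or intermediate CA1. The replicate block gave 2 for PV minus SST (1) and 3 for superficial minus deep (1), and moved no other count of members by over 1.5 times. In superficial minus deep the calls it added were Meg3 (-0.73, adjusted p = 0.00289) and Peg3 (-0.35, adjusted p = 0.0474). The block ended the Gm38393 call for accumbens minus ventral (0.64, adjusted p = 0.0615).

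With 1 library left out, counts ranged from 3 to 4 for dorsal minus ventral, 3 to 5 for dorsal minus intermediate, 1 to 2 for intermediate minus ventral, 0 to 1 for superficial minus deep, 0 to 1 for amygdala minus accumbens, 0 to 1 for accumbens minus ventral, 1 to 2 for postsubiculum minus dorsal, 0 to 1 for CA3, 2 to 3 for DG, 2 to 4 for CA1 minus CA3, 4 to 5 for CA3 minus DG, 2 to 4 for the long axis in CA1 minus DG and 0 to 2 for PV minus SST. The test over all 16 populations was not run with libraries left out. The median of all genes was 0.11 for accumbens minus ventral and 0.13 for PV minus dorsal on the log2 scale, and ranged from -0.02 to 0.11 and from 0.03 to 0.13 over the other settings. The median was not subtracted from the fold changes given there. Dlk1 in dorsal CA1 (11 reads), amygdala-projecting cells (4 reads) and dorsal CA3 (5 reads) is limited by depth.

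The uncalled values that changed sign follow on the log2 scale, the main value in brackets. Limma on FPKM gave for Peg3 -0.04 in dorsal minus intermediate (0.03), 0.12 in accumbens minus ventral (-0.14) and 0.14 in PV minus dorsal (-0.02), for Meg3 -0.24 in CA3 minus DG (0.11) and 0.09 for the long axis in CA1 minus CA3 (-0.04), for Ndn -0.11 there (0.08), for Peg10 0.05 in dorsal minus ventral DG (-0.27), for Dlk1 0.70 in CA1 minus DG (-1.51), and for Gm38393 -0.01 in intermediate minus ventral (0.00) and 0.01 in PV minus dorsal (-0.05). The fit of all 48 gave for Peg3 0.00 in dorsal minus ventral (-0.06), -0.02 in postsubiculum minus dorsal (0.02), 0.03 for the long axis in CA1 minus CA3 (-0.01) and 0.01 in PV minus dorsal (-0.02). No filter gave -0.02 for Peg3 in postsubiculum minus dorsal. The replicate block gave -0.03 for Dlk1 in accumbens minus ventral (0.91). Gm38393 in intermediate minus ventral was -0.00 with the block, DESeq2 and its size factors. With 1 library left out, Dlk1 ranged from -4.74 to 1.83 in dorsal minus ventral DG, -1.45 to 1.43 in accumbens minus ventral, -1.79 to 1.49 in CA1 minus DG and -3.93 to 0.32 for the long axis in CA1 minus CA3. Meg3 ranged from -0.49 to 0.32 in dorsal minus ventral CA1, -0.30 to 0.57 in proximal minus distal, -0.36 to 0.44 for the long axis in CA1 minus CA3 and -0.25 to 0.13 in PV minus dorsal. Nnat ranged from -0.42 to 0.54 in dorsal minus ventral CA3, -0.28 to 0.87 in postsubiculum minus dorsal and -0.36 to 0.10 in PV minus SST. Ndn ranged from -0.16 to 0.15 in superficial minus deep, -0.10 to 0.36 in accumbens minus ventral, -0.88 to 0.24 in postsubiculum minus dorsal, -0.36 to 0.59 in dorsal minus ventral DG, -0.02 to 0.46 in CA1 minus DG and -0.48 to 0.30 for the long axis in CA1 minus CA3. Peg3 ranged from -0.02 to 0.08 in dorsal minus intermediate, -0.28 to 0.03 in accumbens minus ventral, -0.09 to 0.14 in postsubiculum minus dorsal, -0.05 to -0.00 in dorsal minus ventral CA3, -0.06 to 0.04 for the long axis in CA1 minus CA3 and -0.35 to 0.13 in PV minus dorsal. Peg10 ranged from -0.45 to 0.04 in dorsal minus ventral DG. Gm38393 ranged from -0.08 to 0.11 in intermediate minus ventral, -0.14 to 0.16 in PV minus SST, -0.12 to 0.00 in PV minus dorsal and -0.24 to 0.07 in SST minus dorsal. The cause was not tested.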
